A study of Zea mays with 12 samples.

Results

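A small set of genes in maize bract primordia differed from B73 wherever *tsh1* was mutated and kept close to the wild-type level where *tsh4* alone was mutated. It held 34 of the 20168 genes measured, 0.169% of them, of which 11 were higher and 23 were lower. The genes were chosen from the measured values themselves. With d the mean of log2(CPM + 0.1) in a genotype minus that in B73, where CPM is the read count scaled to library size, a gene entered the set when d was at least 1 in size and of the same sign in *tsh1* and in *tsh1 tsh4*, was under 0.5 in size in *tsh4*, and when all libraries of *tsh1* and *tsh1 tsh4* lay on the same side of all B73 libraries. A mean of at least 0.5 CPM over all 12 libraries was also required, and genes that the study had already displayed by name were left out. The changes of the 34 genes in the mutants are therefore given as a description, without a test.

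RNA came from bract primordia that were cut by laser microdissection from sections of greenhouse-grown ears. The genotypes were *tsh1* (the *tsh1-ref* allele), the double mutant *tsh1 tsh4* (DM, both alleles), *tsh4* (the *tsh4-rm* allele) and the inbred B73, which carries neither allele and into which each allele had been repeatedly introgressed. Each genotype had 3 biological replicates, and the captured RNA was amplified in vitro before sequencing. The *tsh1-ref* allele carries a transposon insertion together with a deletion that removes neighboring genes, so *tsh1* and DM libraries share the mutation, the deletion and any donor DNA left beside them. Effects of these on a gene cannot be told apart in this design.

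A bract is the leaf that subtends a flower or branch, and in grasses it is largely suppressed within the inflorescence. *tsh1* encodes a GATA-type zinc-finger transcription factor and *tsh4* an SBP-box transcription factor, and mutants in either gene let bracts grow out. SBP-box proteins form a plant-specific family that acts in leaf and inflorescence development.

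The libraries held between 49481413 and 110703826 reads on genes. The *tsh1* gene itself was at 0.369 to 0.81 CPM in *tsh1* and 0.458 to 0.604 CPM in DM, with 18.7 to 25.3 CPM in *tsh4* and 52.1 to 89.6 CPM in B73. The *tsh4* gene was at 822 to 1360 CPM in *tsh1*, 43.3 to 76.6 CPM in DM, 65.5 to 81.1 CPM in *tsh4* and 1059 to 1553 CPM in B73, so both targeted genes followed the labels. The 4 bract markers used as a check, YABBY genes of the leaf-like organ, were present in all libraries, with summed levels of 1510 to 2033 CPM in *tsh1*, 1757 to 2148 CPM in DM, 1572 to 1901 CPM in *tsh4* and 1102 to 1720 CPM in B73. The DM sums did not overlap those of B73. *kn1*, a meristem marker, was also present, and overlapped B73 in *tsh1* and DM but was lower in *tsh4*, at 78.4 to 133 CPM, against 157 to 211 CPM in B73. The summed level of *ba1* and *baf1*, genes of the boundary where axillary meristems form, was lower in every mutant library than in every B73 library, at 110 to 124 CPM in *tsh1*, 47.5 to 71.4 CPM in DM, 75.3 to 140 CPM in *tsh4* and 160 to 184 CPM in B73. The part of these shifts in the 34 genes was not tested. Fewer cells of a type and less RNA per cell cannot be told apart in such samples.

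The requirements narrowed the table step by step. Of the 18477 genes with a mean of at least 0.5 CPM, 239 moved by at least 1 on the log2 scale in the same direction in *tsh1* and DM. The limit on *tsh4* left 44 of these and the separation of libraries left 36. GRMZM2G026013 and GRMZM5G847466 were then left out because they lie in the *tsh1-ref* deletion. Both had 0 reads in all *tsh1* and DM libraries, and were at least 312-fold and 54.3-fold lower in *tsh1* than in B73.

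**Figure D1:**
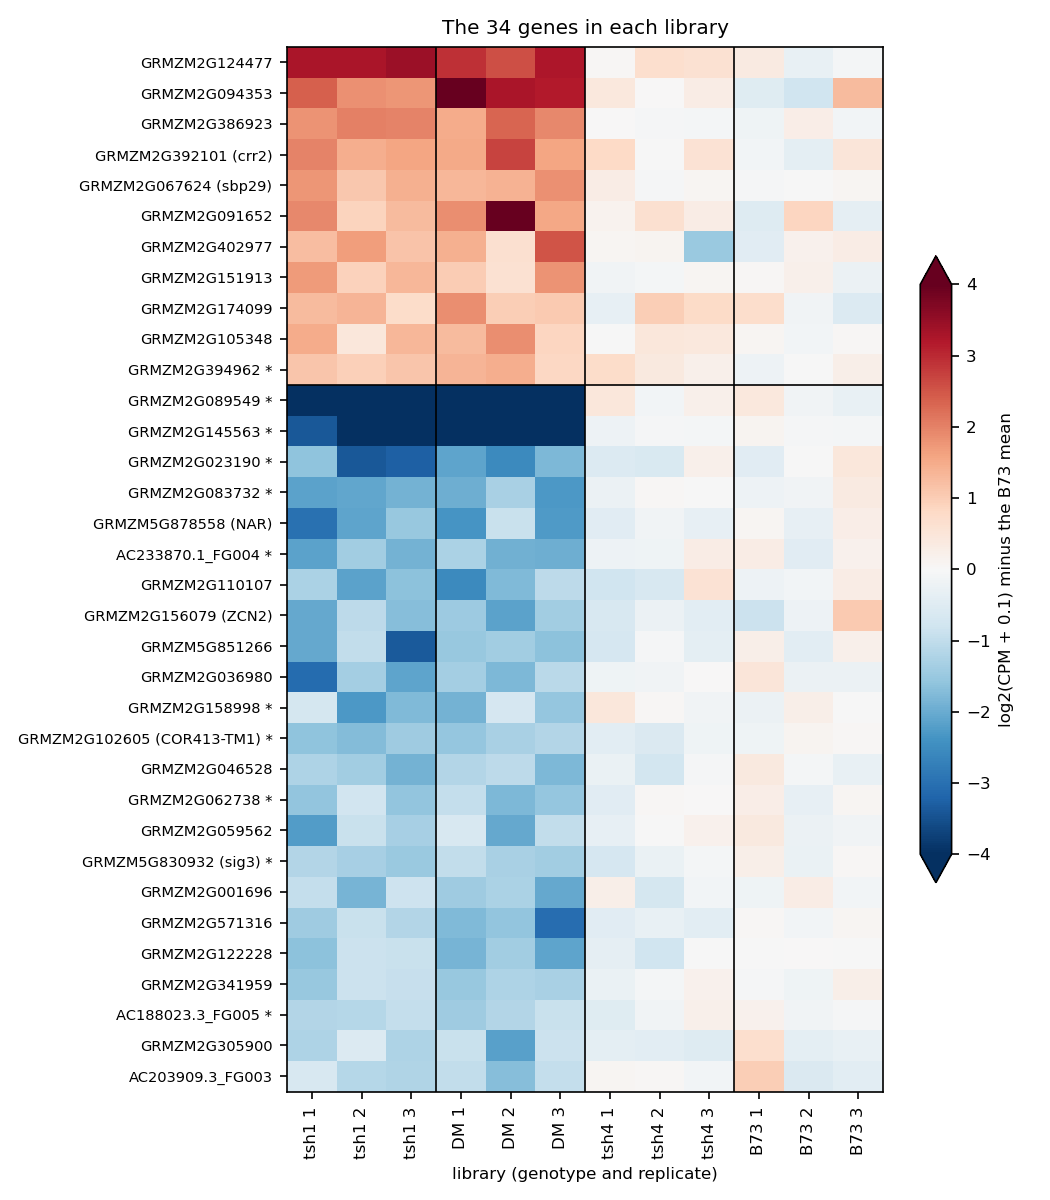
Heat map of the 34 genes (rows, an asterisk marking those within 50 rows of *tsh1*) in the 12 libraries (columns, by genotype and replicate), colored by log2(CPM + 0.1) minus the B73 mean. The 11 higher genes stand above the horizontal line and the 23 lower genes below it; colors deepen in *tsh1* and DM and stay pale in *tsh4*, a pattern that the selection itself sets.

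Among the 34 genes the log2 change in *tsh1* ran from -5.49 to 3.33, and in DM from -5.19 to 3.70. Most changes were moderate, with a median of 1.35 for the smaller of both absolute changes. Genes were called when limma gave an adjusted p no higher than 0.05 together with a log2 change of at least 1 in size. In *tsh1*, where 1.16% of all genes were called, 0.441% higher and 0.719% lower, 20 of the 34 were called, 5 higher and 15 lower. In DM, where 5.84% of all genes were called, 2.69% higher and 3.15% lower, 31 of the 34 were called, 9 higher and 22 lower. The 20 called in *tsh1* were all called in DM, 11 were called only in DM, and GRMZM2G402977, GRMZM2G174099 and AC203909.3_FG003 were called in neither. In *tsh4*, where 3.81% of all genes were called, 2.04% higher and 1.77% lower, none of the 34 was. At an unadjusted p under 0.05, 2 of the 34 passed there in limma, 2 in edgeR and 2 in DESeq2, beside 15.3%, 15.2% and 16% of all genes. The selection used all of these contrasts, so the counts only describe it. Across all genes, 7.34% had all *tsh1* and DM libraries on one side of B73.

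The position of the genes was not used to choose them. The rows of the deposited table follow the order of genes along the maize chromosomes, with a rank correlation between row and position of 0.987 to 0.998 within each of the 10 chromosomes, over genes that could be placed. By this order, 11 of the 34 genes (32.4%) lay within 50 rows of *tsh1*, a stretch of 101 rows that holds 0.501% of the table. Of these 11, 10 were lower and 1 was higher, so the stretch held 43.5% of the lower genes and 9.09% of the higher ones. No other stretch of 101 rows held more than 2 of the 34. All 68 genes of the stretch that could be placed were on the chromosome of *tsh1*, and the first gene placed on another chromosome stood 55 rows after it. None of the 34 lay within 100 rows of *tsh4*.

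**Figure D2:**
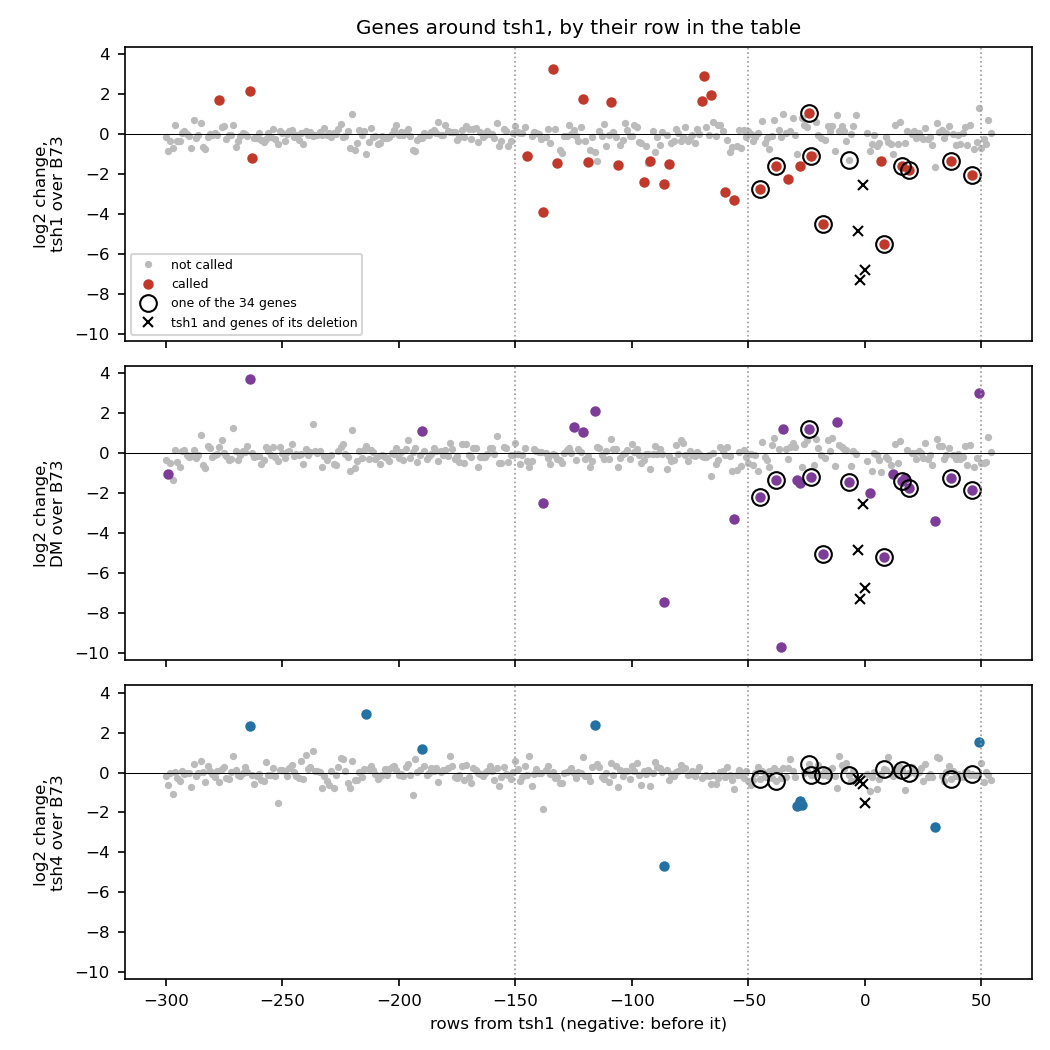
Log2 change over B73 (vertical axes) in *tsh1*, DM and *tsh4* against the distance in rows from *tsh1* (horizontal axis, negative before it), with called genes in color, the 34 genes circled, and *tsh1* and the genes of its deletion as crosses. Dotted lines mark 150 and 50 rows before and 50 rows after *tsh1*; the 11 circled genes lie between the inner lines, away from 0 in *tsh1* and DM and near 0 in *tsh4*.

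The largest falls of the set were next to *tsh1*. GRMZM2G089549, 8 rows after it, had 0.012, 0.262 and 0.022 CPM in *tsh1*, 0.226, 0.111 and 0.034 CPM in DM, 10.5, 6.95 and 8.83 CPM in *tsh4*, and 10.3, 6.82 and 6.18 CPM in B73. It thus had at most 18 reads in any *tsh1* or DM library and at least 361 in any B73 library, and fell by 5.49 in *tsh1* and by 5.19 in DM on the log2 scale. GRMZM2G145563, 18 rows before *tsh1*, had 18, 0 and 0 reads in *tsh1* and 0 reads in all DM libraries. Its levels were 0.218, 0 and 0 CPM in *tsh1* and 0 CPM in DM, against 2.75, 3.14 and 3.01 CPM in *tsh4* and 3.50, 3.12 and 3.03 CPM in B73. With 3 reads per library taken as the floor, it was at least 70.5-fold lower in DM than in B73. The identifiers of these genes carry no informative name here, and their functions are not described.

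COR413-TM1 (GRMZM2G102605), 38 rows before *tsh1*, belongs to a family of cold-regulated membrane proteins first named in Arabidopsis, in which this type is found in the chloroplast. It had 29.3, 26.7 and 33.1 CPM in *tsh1*, 30.1, 36.1 and 39.3 CPM in DM, 66.2, 59.3 and 78.4 CPM in *tsh4*, and 79.8, 96.2 and 92.2 CPM in B73. The *tsh4* libraries were intermediate and did not overlap B73, at a log2 change of -0.40, while those in *tsh1* and DM were -1.59 and -1.35. *sig3* (GRMZM5G830932), 37 rows after *tsh1*, encodes a sigma factor, a nuclear-encoded protein that directs the plastid-encoded RNA polymerase to promoters. It had 3.99, 3.56 and 3.17 CPM in *tsh1*, 4.58, 3.63 and 3.41 CPM in DM, 5.67, 7.55 and 8.57 CPM in *tsh4*, and 10.6, 7.58 and 9.30 CPM in B73. Every *tsh1* and DM library was below every *tsh4* library as well as every B73 library.

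AC188023.3_FG005, 23 rows before *tsh1*, stood at 45.9, 46.5 and 53.1 CPM in *tsh1*, 38.3, 45.2 and 55.1 CPM in DM, 73.6, 92.8 and 119 CPM in *tsh4*, and 115, 94.1 and 100.3 CPM in B73. GRMZM2G394962, 24 rows before *tsh1* and so the next row to it, was the only higher gene of the stretch. It had 19.0, 17.0 and 18.7 CPM in *tsh1*, 22.2, 24.0 and 15.5 CPM in DM, 14.6, 11.4 and 9.996 CPM in *tsh4*, and 7.48, 8.62 and 10.2 CPM in B73. Neighboring rows thus differed from B73 in opposite directions in the same libraries.

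**Figure D3:**
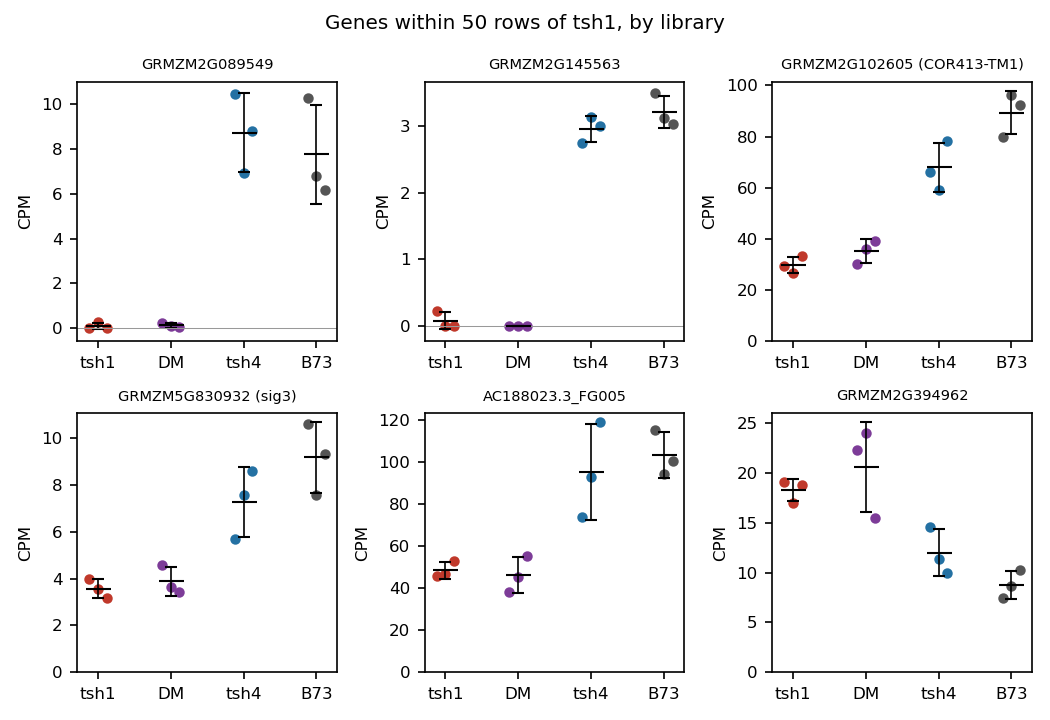
CPM (vertical axes, each from 0) in every library of *tsh1*, DM, *tsh4* and B73 for 6 genes within 50 rows of *tsh1*; points are libraries and bars the mean with SD (n = 3 each). GRMZM2G089549 and GRMZM2G145563 are close to 0 in *tsh1* and DM, in the next 3 every *tsh1* and DM library is below every B73 library, and GRMZM2G394962 is higher.

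The other members of the stretch were GRMZM2G023190, GRMZM2G062738, GRMZM2G158998, AC233870.1_FG004 and GRMZM2G083732, which stood 45 and 7 rows before and 16, 19 and 46 rows after *tsh1*. All 5 were lower. GRMZM2G083732 averaged 0.328 ± 0.036 CPM in *tsh1*, 0.409 ± 0.185 CPM in DM, 1.58 ± 0.18 CPM in *tsh4* and 1.68 ± 0.40 CPM in B73 (SD, n = 3 each). AC233870.1_FG004 averaged 1.06 ± 0.32 CPM in *tsh1*, 1.13 ± 0.35 CPM in DM, 3.80 ± 0.80 CPM in *tsh4* and 3.93 ± 1.05 CPM in B73 (SD, n = 3 each). For both genes the *tsh1* and DM libraries overlapped each other and lay below all *tsh4* libraries. GRMZM2G158998 varied more, with 13.7, 4.48 and 6.57 CPM in *tsh1* and 5.995, 13.9 and 7.64 CPM in DM, against 30.6, 22.9 and 20.2 CPM in *tsh4* and 19.2, 26.3 and 22.2 CPM in B73. GRMZM2G023190 and GRMZM2G062738 were weakly expressed, at means of 1.75 and 0.858 CPM in B73, and their log2 changes were -2.76 and -1.31 in *tsh1* and -2.16 and -1.43 in DM.

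The same neighborhood was then counted over all its genes, with *tsh1* and the 3 deletion genes set aside. Of the 97 genes within 50 rows, 13 (13.4%) were called in *tsh1*, 21 (21.6%) in DM and 5 (5.15%) in *tsh4*, beside 1.16%, 5.84% and 3.81% of all genes. Of the 13 called in *tsh1*, 12 were lower and 11 were also called in DM. The 11 genes of the set are part of these counts and were chosen for such changes.

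Farther before *tsh1* the pattern of calls was different, in steps chosen after the values were seen. From 51 to 150 rows before *tsh1*, 17 of 100 genes (17.0%) were called in *tsh1*, 6 (6.0%) in DM and 2 (2.0%) in *tsh4*. Only 4 of the 17 were also called in DM, and 13 were not. None of these 100 genes belongs to the set, which requires the change in both genotypes. From 151 to 250 rows before, 0 of 100 genes were called in *tsh1* by limma, edgeR or DESeq2, and 12 had an unadjusted p under 0.05 in each of these tools, which 9.3%, 9.45% and 10.2% of all genes had. From 251 to 300 rows before, 3 of 50 genes (6.0%) were called in *tsh1*, 1 of them also in DM. Within 50 rows of *tsh1*, 11 of the 13 genes called in *tsh1* were also called in DM. Of the genes called in both, 10 belong to the set, which was chosen for such changes. DM had 21 calls there, so not all of its calls were shared. From 51 to 150 rows before *tsh1*, the calls in *tsh1* were mostly made without one in DM. A call in *tsh1* and none in DM does not show a difference between them, and DM was not tested against *tsh1* directly. The interaction test of limma asks instead whether the DM change departs from the added changes of both single mutants. It called 0.288% of all genes and 4 of the 100 genes. Altogether, the 201 rows from 150 before to 50 after *tsh1*, 0.997% of the table, held 34 of the 234 genes called in *tsh1* (14.5%). This count includes *tsh1* itself and the genes of its deletion. With those set aside, 30 of 197 genes there (15.2%) were called in *tsh1*.

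**Figure D4:**
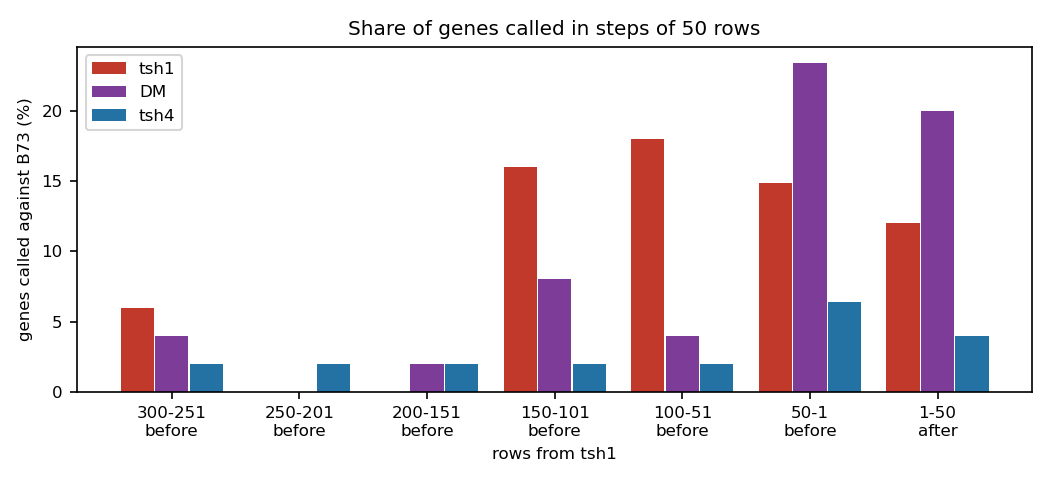
Bars give the percentage of genes called against B73 (vertical axis, from 0) in *tsh1*, DM and *tsh4*, in steps of 50 rows from 300 rows before to 50 rows after *tsh1* (horizontal axis), leaving out *tsh1* and the deletion genes. In *tsh1* the share is 12% to 18% in the 4 steps from 150 rows before to 50 after, and in DM it is 20.0% and 23.4% only in the inner 2.

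The remaining 23 genes, 10 higher and 13 lower, were spread over the table, and the closest pair among them stood 42 rows apart. Of the 34 genes, 19 could be matched to a gene table, 7 of them on the chromosome of *tsh1*, and GRMZM2G091652 was the only one of these 7 that lay outside the stretch. The 19 fell on 9 chromosomes.

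Among the higher genes away from *tsh1* was *sbp29* (GRMZM2G067624), an SBP-box gene of the family to which *tsh4* belongs. It had 693, 427 and 540 CPM in *tsh1*, 510, 534 and 722 CPM in DM, 248, 197 and 214 CPM in *tsh4*, and 195, 199 and 214 CPM in B73. The *tsh1* and DM libraries overlapped each other and were all above the *tsh4* and B73 libraries, which also overlapped. The means were 2.73-fold the B73 mean in *tsh1*, 2.90-fold in DM and 1.08-fold in *tsh4*. *crr2* (GRMZM2G392101), a response regulator of the cytokinin signaling pathway, had 5.92, 4.01 and 4.45 CPM in *tsh1*, 4.25, 9.81 and 4.41 CPM in DM, 2.52, 1.39 and 2.13 CPM in *tsh4*, and 1.298, 1.06 and 2.02 CPM in B73. It was above all *tsh4* and B73 libraries in *tsh1* and DM, and its log2 change of 0.45 in *tsh4* was close to the limit of 0.5.

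By the smaller of the changes in *tsh1* and DM, the largest rise was that of GRMZM2G124477, which has no informative name. It had 2.12, 2.13 and 2.39 CPM in *tsh1*, 1.63, 1.28 and 2.05 CPM in DM, 0.135, 0.263 and 0.254 CPM in *tsh4*, and 0.194, 0.088 and 0.12 CPM in B73. The mean was 16.5-fold that of B73 in *tsh1* and 12.3-fold in DM, on 5 to 22 reads per B73 library. GRMZM2G386923 had nearly equal means in *tsh1* and DM, with 10.5, 12.4 and 11.9 CPM in *tsh1*, 8.44, 15.4 and 11.5 CPM in DM, 3.01, 2.84 and 2.81 CPM in *tsh4*, and 2.61, 3.61 and 2.76 CPM in B73. Its log2 changes were 1.93 in *tsh1*, 1.91 in DM and -0.04 in *tsh4*.

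**Figure D5:**
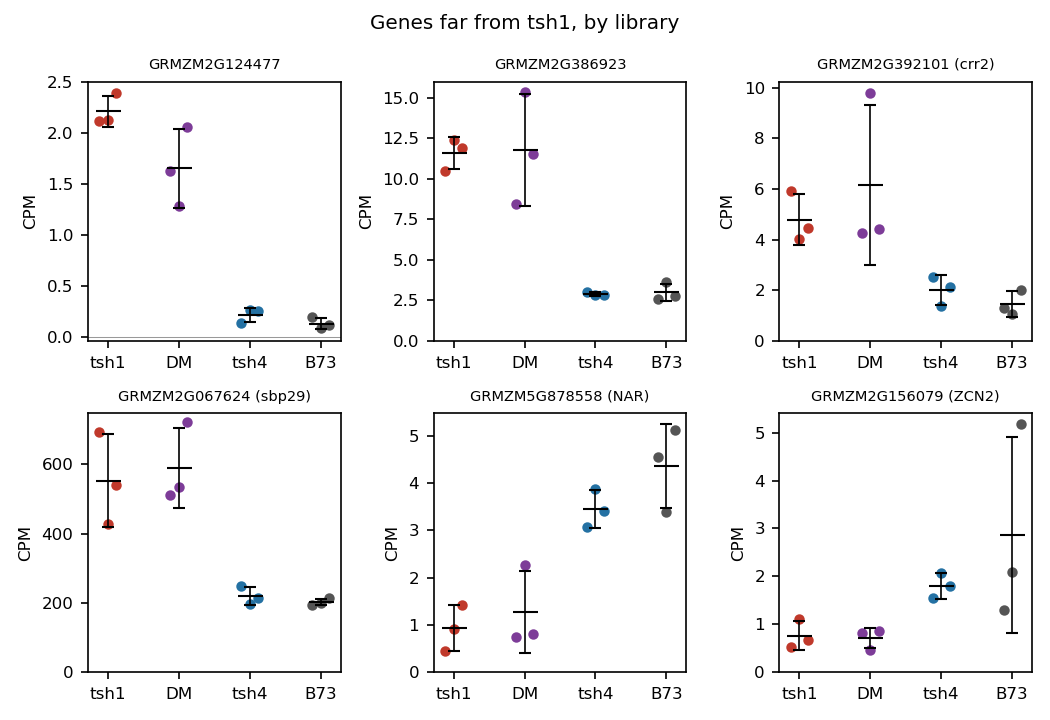
CPM (vertical axes, each from 0) in every library of *tsh1*, DM, *tsh4* and B73 for 6 genes far from *tsh1* in the table; points are libraries and bars the mean with SD (n = 3 each). The first 4 are higher in *tsh1* and DM, *NAR* and *ZCN2* are lower, and the B73 replicate 3 point of *ZCN2* (5.17 CPM) stands apart.

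In several of the other higher genes a library stood out. GRMZM2G094353 had 0.822, 0.523 and 0.499 CPM in *tsh1* and 4.35, 1.60 and 1.47 CPM in DM, against 0.135, 0.075 and 0.117 CPM in *tsh4* and 0.026, 0 and 0.325 CPM in B73. Without DM replicate 2, GRMZM2G091652 had a log2 change of 1.70 in DM, against 2.54 with all libraries, because that library was at 5.56 CPM beside 1.003 and 0.793 CPM in the other DM replicates. GRMZM2G402977, GRMZM2G151913 and GRMZM2G174099 averaged 0.907, 0.974 and 1.01 CPM in *tsh1* and 1.19, 0.889 and 1.17 CPM in DM, against 0.299, 0.327 and 0.436 CPM in B73. GRMZM2G105348, at 11.6 ± 4.0 CPM in *tsh1*, 13.7 ± 4.9 CPM in DM, 6.43 ± 1.103 CPM in *tsh4* and 5.22 ± 0.39 CPM in B73 (SD, n = 3 each), was called only in DM. In GRMZM2G174099 and GRMZM2G105348, and in no other of the 34 genes, the *tsh1* and DM libraries were not all on one side of the *tsh4* libraries.

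Among the lower genes away from *tsh1*, the largest fall by the same measure was that of *NAR* (GRMZM5G878558), also named *NR*, a nitrate reductase, which converts nitrate to nitrite in nitrogen assimilation. It had 0.459, 0.907 and 1.43 CPM in *tsh1*, 0.752, 2.27 and 0.81 CPM in DM, 3.07, 3.87 and 3.42 CPM in *tsh4*, and 4.55, 3.38 and 5.12 CPM in B73. The B73 mean was 4.67-fold the mean of *tsh1* and 3.40-fold that of DM. *ZCN2* (GRMZM2G156079) belongs to the family of phosphatidylethanolamine-binding proteins that holds the Arabidopsis flowering regulators FT and TFL1. It had 0.52, 1.12 and 0.672 CPM in *tsh1*, 0.828, 0.474 and 0.862 CPM in DM, 1.54, 2.07 and 1.80 CPM in *tsh4*, and 1.31, 2.10 and 5.17 CPM in B73. B73 replicate 3 set much of its change. Without that library the log2 change was -1.07 in *tsh1* and -1.14 in DM, against -1.60 and -1.66 with it.

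GRMZM5G851266, GRMZM2G036980 and GRMZM2G110107 completed the 10 lower genes with the largest changes. GRMZM5G851266 had 3.93, 8.32 and 1.54 CPM in *tsh1*, 5.79, 6.22 and 5.24 CPM in DM, 10.4, 16.0 and 12.7 CPM in *tsh4*, and 19.6, 12.2 and 19.0 CPM in B73. Its *tsh1* replicates spread over more than the whole range of DM, and without *tsh1* replicate 3 the log2 change in *tsh1* was -1.52, against -2.13 with it. GRMZM2G036980 averaged 0.635 ± 0.407 CPM in *tsh1*, 1.03 ± 0.27 CPM in DM, 2.68 ± 0.21 CPM in *tsh4* and 2.95 ± 0.93 CPM in B73 (SD, n = 3 each). GRMZM2G110107 averaged 0.606 ± 0.204 CPM in *tsh1*, 0.598 ± 0.347 CPM in DM, 1.90 ± 1.14 CPM in *tsh4* and 2.13 ± 0.44 CPM in B73 (SD, n = 3 each). The other 8 lower genes away from *tsh1* had log2 changes between -1.51 and -1.001 in *tsh1* and between -2.13 and -1.21 in DM.

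The named genes belong to families with other members in the table, which were looked up by gene name after the values were seen. Of 19 *sbp* genes, *sbp29* was the only one called higher in *tsh1* and *sbp23* (GRMZM2G126018) the only one called lower. The log2 change of *sbp23* was -1.43 in *tsh1*, -0.57 in DM and 0.02 in *tsh4*. In DM, 2 of the 19 were called higher and 3 lower, and in *tsh4* 2 were called, both lower and *tsh4* itself among them. Of 8 response regulator genes, *crr2* was the only one called in *tsh1*, and *RR7* and *RR6* were called lower in DM, at -1.19 and -1.41. Of 4 *ZCN* genes, 3 were called in DM, *ZCN2* lower and *ZCN18* and *ZCN14* higher, at 1.02 and 3.12. Of 3 *sig* genes, *sig3* was the only one called in *tsh1*, and in DM *sig3* was called lower and *sig6* higher, at 1.66.

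Setting DM against *tsh4* reads the *tsh1-ref* allele, with its deletion and any linked donor DNA, in a second background. The difference between DM and *tsh4* ran from -5.38 to 3.46 on the log2 scale. In that comparison, where 0.674% of all genes were called, 0.352% higher and 0.322% lower, 14 of the 34 were called, 5 higher and 9 lower. In 32 of the 34 genes all *tsh1* and DM libraries lay on one side of all *tsh4* libraries, which 3.04% of all genes did. The *tsh4* libraries overlapped those of B73 in 31 genes. Because the selection fixed these genotypes close to or away from B73, these counts follow largely from it.

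The *tsh1* and DM libraries overlapped each other in 31 of the 34 genes and did not in 3, beside 11.9% of all genes in which they did not. The selection put both genotypes on the same side of B73, so this count only describes the set. The absolute change was larger in DM in 19 genes and larger in *tsh1* in 15. GRMZM2G571316 was among those lower in DM, with 1.29, 1.90 and 1.54 CPM in *tsh1*, 1.003, 1.14 and 0.345 CPM in DM, 2.64, 2.93 and 2.69 CPM in *tsh4*, and 3.70, 3.37 and 3.79 CPM in B73. It was taken as an example after its values were seen. The interaction, the part of the DM change that the added changes of both single mutants leave over, was called by limma in 0.288% of all genes and in 0 of the 34. At an unadjusted p under 0.05, 1 of the 34 passed in limma, 2 in edgeR and 2 in DESeq2, beside 5.32%, 5.28% and 5.85% of all genes, so the count shows nothing particular to the set.

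The edges of the set were close to genes outside it. AC203909.3_FG003 and GRMZM2G305900 entered with a log2 change of -1.001 and -1.01 in *tsh1*. GRMZM2G128477, 35 rows before *tsh1*, stayed out with 0.999 in *tsh1*, although it had 1.201 in DM, and GRMZM2G051522 stayed out with -0.99 in DM. GRMZM2G174099 and *crr2* entered with 0.47 and 0.45 in *tsh4*, and GRMZM2G171210 and GRMZM2G480903 stayed out with -0.52 and 0.53 there. AC203909.3_FG003 rested on B73 replicate 1, without which its log2 change was -0.51 in *tsh1* and -0.72 in DM.

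The same requirements with the single mutants exchanged, so that genes follow *tsh4* and not *tsh1*, were met by 228 genes, 128 higher and 100 lower in *tsh4*. Of these, 7 (3.07%), *tsh4* itself included, lay within 50 rows of *tsh4*, and 10 (4.39%) lay within 100 rows. For the genes that follow *tsh1*, 11 of 34 (32.4%) lay within 50 rows of *tsh1*. Many others of the 228 stood close together in the table more than 100 rows before *tsh4*, outside both windows. The difference therefore holds for these window sizes only, and clustering near the mutated gene is not shown to be particular to *tsh1*. The sets share the DM and B73 libraries.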

How the data were processed

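Laser-microdissected bract primordia of 4 maize genotypes were sequenced in 12 libraries. Reads were trimmed (Trimmomatic 0.36) and aligned to the AGPv3 B73 genome (STAR 2.6.0a) by the authors, who counted them with featureCounts (strand setting not given in the sources used here), and deposited a signal per gene, CPM scaled by edgeR 3.22.5. The number of columns without a sample was 0. All values were whole multiples of 1 read (tolerance 0.0006 CPM), which gave the reads per library. Floors cover counting error only.

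Genotypes came from sample titles. limma 3.58.1 (R 4.3.3, intensity trend) was fitted to log2(CPM + 0.1) of all genes and libraries, with Benjamini-Hochberg adjustment. The pseudocount understates fold changes where levels are low. The fit was tested on simulated data. Count models of DESeq2 1.42.0 and edgeR 4.0.16, fitted to the recovered reads, were among the alternatives.

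The set and all lists were chosen with earlier results of these data known. Genes named were the 10 higher and 10 lower members with the largest smaller change, members with an informative symbol, members within 50 rows of *tsh1*, and the edges; others were chosen after their values were seen. Symbols came from a RefSeq gene table of another assembly (14381 of 20168 identifiers matched), so no coordinates are given; because *tsh1* was not matched in it, distance was counted in rows of the deposited table. Sequences were not used here.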

Additional observations from a re-analysis of the deposited data

Results flagged for a closer look

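From 150 rows before to 50 rows after *tsh1*, the interaction term of limma called 6 of 197 genes, beside 0.288% of all genes. Adjustment was by Benjamini-Hochberg over all genes, and *tsh1* and the deletion genes were set aside. In these 6, the change with *tsh1-ref* differed between the *tsh4* mutant and *tsh4* wild-type backgrounds by limma, though not in all of them by edgeR. None of them belongs to the 34 genes. The cause was not tested.

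The largest interaction was that of GRMZM2G065757, 36 rows before *tsh1*, at -9.23 (SE 0.23, adjusted p = 2.34e-13). It had 245, 199 and 279 CPM in *tsh1*, 0.226, 0.221 and 0.224 CPM in DM, 242, 220 and 188 CPM in *tsh4*, and 296, 256 and 243 CPM in B73, and so was nearly lost in DM alone. GRMZM2G031053, 60 rows before *tsh1*, had an interaction of 2.99 (SE 0.48, adjusted p = 0.00777), with 18.8, 5.23 and 6.20 CPM in *tsh1*, 51.8, 69.5 and 56.5 CPM in DM, 66.7, 54.9 and 43.1 CPM in *tsh4*, and 53.7, 75.8 and 60.2 CPM in B73. GRMZM2G086132, 84 rows before, had 1.71 (SE 0.26, adjusted p = 0.00468) and was likewise lower in *tsh1* alone, at 26.3, 22.8 and 25.6 CPM, against 57.4, 81.8 and 70.6 CPM in B73.

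GRMZM2G079661, 134 rows before *tsh1*, had -3.33 (SE 0.47, adjusted p = 0.00248 by limma, but 0.198 by edgeR) and GRMZM2G458607, 69 rows before, had -2.90 (SE 0.53, adjusted p = 0.0248 by limma, but 1 by edgeR and 0.277 by DESeq2). Both were at 0.447 to 1.08 CPM in *tsh1* and at most 0.035 CPM in any other library. GRMZM2G160417, 28 rows before, had 1.56 (SE 0.28, adjusted p = 0.0225) and was lower in all mutants, at log2 changes of -1.60 in *tsh1*, -1.49 in DM and -1.45 in *tsh4*.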

How the results depend on the processing

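The number of genes in the set depends on its thresholds. It was 72 at a fold threshold of 0.75 and 13 at 1.5, 16 at a limit on *tsh4* of 0.25 and 63 at a limit of 1, and 22 with a pseudocount of 1, of which 17 were among the 34. Within 50 rows of *tsh1* lay 14 of the 72 (19.4%), 5 of the 13 (38.5%), 7 of the 16 (43.8%) and 11 of the 63 (17.5%), against 11 of the 34 (32.4%). Leaving out 1 library gave 29 to 46 genes, 8 to 13 of them within 50 rows, and 13 of the 34, 8 of them within 50 rows, were kept whichever library was left out. The lowest, 29 with 8 near *tsh1*, came without *tsh4* replicate 3. Calls in *tsh1* numbered 234, against 150 with a pseudocount of 1, 370 by DESeq2, and 156 to 289 with 1 library left out. Calls in DM numbered 1178, against 650 with a pseudocount of 1 and 763 at a mean of at least 1 CPM, and 952 to 1212 with 1 library left out. Calls in *tsh4* numbered 768, against 414 with a pseudocount of 1 and 575 to 834 with 1 library left out. Between DM and *tsh4* there were 136, against 85 at a mean of at least 1 CPM and 214 by DESeq2; without a library 71 to 160, with 85 without DM replicate 3, 74 without *tsh4* replicate 2 and 71 without *tsh4* replicate 3. Interactions numbered 58, against 157 by DESeq2, and 34 to 84 without a library, with 36 without DM replicate 3, 34 without *tsh4* replicate 2 and 37 without B73 replicate 3. Calls within 50 rows of *tsh1* stayed at 11 to 16 in *tsh1* and 14 to 21 in DM under the alternatives run. Of the 34 genes, 16 to 26 were called in *tsh1* and 25 to 31 in DM with 1 library left out, and 28 and 34 by DESeq2. None of 1292 refitted changes of the 34 genes reversed. Without a library, or with another pseudocount, none could, since the selection put all *tsh1* and DM libraries on one side of B73. Of the 1292, 65 moved by more than the spread between replicates, 36 of them with a pseudocount of 1. The cause of these shifts was not tested.

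The correlation of deviations between libraries of the same replicate number ran from -0.408 to 0.731 over 18 pairs, with a median of 0.135 and 11 above 0.1, and between those of different numbers from -0.591 to 0.608 over 36 pairs, with a median of 0.009 and 14 above 0.1. All 3 same-numbered pairs of DM and B73 were above 0.1, at 0.731, 0.439 and 0.305, but not all of the 18 were, so the numbers were not taken as pairs. With the replicate number as a block, 19 of the 34 genes were called in *tsh1* and 29 in DM.

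Depth limits the weakly expressed genes, since 3 reads correspond to 0.0265 to 0.0651 CPM.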
